A study of Mus musculus with 6 samples.

Results

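Glutathione transferases and the enzymes that make, recycle and break down glutathione were followed in mouse kidneys with and without adiponectin expressed from a transgene in the tubule. The members were chosen by name as protein-coding genes of the Alpha, Kappa, Mu, Omega, Pi, Theta and Zeta transferase classes, the microsomal transferases (Mgst), the gamma-glutamyltransferases (Ggt), and Gclc, Gclm, Gss, Gsr, Ggct, Oplah and Dpep1. The rule used names only, but it was set with earlier results of these data known. It gave 36 of the 54532 genes in the deposited table. Of these, 31 passed the filter on low counts and were tested, and 5 did not (Gsta1, Gstm3, Gstp3, Gstt4 and Mgst2). The 7 Mu genes, Gstm1 to Gstm7, lie side by side in 1 cluster and were also described apart from the other 29 members.

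Whole kidneys came from male mice on the C57BL/6 background that received doxycycline in chow at 600 mg/kg for 4 days. Control mice carried KsprtTA, a doxycycline-dependent activator driven by the kidney-specific cadherin promoter in the epithelium of the nephron tubule, and KSPAPN mice carried KsprtTA together with TRE-Adiponectin, so that both groups shared the activator and the drug. The labels call the Control genotype WT, and the age of these mice is not given in the sources used here. Each group had 3 libraries, each a pool of 3 mice (9 mice a group), so that p-values measure the spread between pools.

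The comparison addresses how transcript levels in the kidney differ with the adiponectin transgene. The paper reported that serum adiponectin also rose in KSPAPN mice after a longer doxycycline treatment. Local and circulating adiponectin therefore cannot be told apart here. Libraries held 17183358 to 20871173 counts on genes. Adipoq, the transgene product, had 2, 0 and 2 counts in the Control libraries and 24629, 17483 and 26811 in the KSPAPN libraries, as the labels say. The labels' extraction text speaks of liver although the tissue label is kidney. The proximal tubule marker Slc34a1 had 83777 to 129051 counts per library, while the hepatocyte marker Tat had 0 to 3 and the adipocyte marker Lep 0 or 1. Other genes of the same lists were present. The 6 hepatocyte genes summed to 1116 to 1735 CPM (counts scaled to library size) in Control and 641 to 959 in KSPAPN. The 6 adipocyte genes summed to 39.8 to 41.9 and 42.7 to 59.0 CPM. Over the 16017 genes tested, 63 rose and 361 fell at an adjusted p under 0.05 (edgeR quasi-likelihood test, Benjamini-Hochberg adjustment), and the median log2 fold change was 0.01.

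Glutathione is a tripeptide of glutamate, cysteine and glycine. It is assembled in the cytosol by glutamate-cysteine ligase and glutathione synthetase, and transferases join it to reactive compounds such as oxidized lipids and drugs. In the kidney the brush border of the proximal tubule is rich in gamma-glutamyltransferase and dipeptidase, which take filtered and secreted glutathione and its conjugates apart so that the amino acids can be taken back up.

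The cluster of Mu class transferases held the member with the largest rise and also a member that fell. Gstm5 was 2.33-fold higher in KSPAPN and Gstm7 was 1.62-fold higher, whereas Gstm1, the most abundant transferase in Control kidneys, was 1.59-fold lower. Kidneys were sequenced whole, so fewer cells of a type and less RNA per cell cannot be told apart. Levels per length are given as FPKM, fragments scaled by transcript length and library size. The bases just before the annotated start of these 3 genes and of Gstm2 are shown because genes of 1 cluster moved in different directions. They were taken from RefSeq (GRCm38.p6), 5′ to 3′ on the gene's own strand, and capitals mark TGACNNNGC, a core of the antioxidant response element.

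Gstm5, plus strand, chr3:107895671-107895820: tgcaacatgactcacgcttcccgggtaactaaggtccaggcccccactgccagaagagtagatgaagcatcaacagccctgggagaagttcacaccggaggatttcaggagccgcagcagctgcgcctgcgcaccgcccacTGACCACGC
Gstm7, minus strand, chr3:107931818-107931967: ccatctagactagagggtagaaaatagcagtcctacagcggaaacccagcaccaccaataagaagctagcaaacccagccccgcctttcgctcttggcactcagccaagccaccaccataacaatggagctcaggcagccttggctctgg
Gstm2, minus strand, chr3:107986454-107986603: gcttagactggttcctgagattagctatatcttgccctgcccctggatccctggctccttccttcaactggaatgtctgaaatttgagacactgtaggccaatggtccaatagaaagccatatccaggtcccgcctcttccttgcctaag
Gstm1, minus strand, chr3:108017974-108018123: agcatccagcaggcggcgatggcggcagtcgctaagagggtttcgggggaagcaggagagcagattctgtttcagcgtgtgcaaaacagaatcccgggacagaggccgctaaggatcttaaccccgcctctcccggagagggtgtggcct

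Gstm5 held 1 match in this window, its first base 9 bases before the GENCODE start of the gene, and the windows of Gstm7, Gstm2 and Gstm1 held none. Searched on both strands of 300-base RefSeq promoters (250 bases before to 50 after a start), TGACNNNGC was present for 7 of the 30 members with an entry (23.3%), which were Gclm, Ggct, Ggt1, Gsta3, Gstm5, Gstm7 at an alternative start, and Mgst1. Of all 27025 genes with an entry, 3781 (14.0%) held it. A match describes letters only, and members with it moved both ways (Gstm5 higher, Gsta3 and Ggt1 lower).

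Gstm5 (chromosome 3, 107895821 to 107898686, plus strand) had FPKM of 129, 176 and 183 in the Control libraries and 396, 394 and 340.3 in the KSPAPN libraries. The lowest KSPAPN library lay well above the highest Control library. The log2 fold change was 1.22 (SE 0.14, edgeR adjusted p = 0.0058), and Gstm5 passed the threshold without any 1 of the 6 libraries.

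Gstm7 (107926334 to 107931817, minus strand), a less abundant Mu enzyme, had 6.47, 6.88 and 6.68 FPKM in Control and 12.8, 10.1 and 9.28 in KSPAPN. The groups did not overlap, and KSPAPN replicate 1 stood highest. The log2 fold change was 0.69 (SE 0.16, edgeR adjusted p = 0.0498), just inside the threshold, and the call was lost when any 1 library was left out and when libraries were scaled by total counts alone.

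Gstm1 (108012255 to 108017973, minus strand), a major Mu enzyme of mouse tissues, had 279, 258 and 211 FPKM in Control and 161, 171 and 135 in KSPAPN. All KSPAPN libraries were below all Control libraries. Gstm1 fell by 0.67 on the log2 scale (SE 0.13, edgeR adjusted p = 0.0256), a call that was lost without Control replicate 1, Control replicate 2 or KSPAPN replicate 3.

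Gstm2 (107981702 to 107986453, minus strand) had 43.7, 35.8 and 38.4 FPKM in Control and 44.6, 48.2 and 46.1 in KSPAPN. Its groups did not overlap, but the gap between them was narrow. The log2 fold change of 0.24 (SE 0.10) did not pass (edgeR adjusted p = 0.213), but with each library corrected for GC content and transcript length it was 0.43 and passed.

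Gstm4 (108040408 to 108044894, minus strand) had 6.73, 7.63 and 7.80 FPKM in Control and 8.25, 6.60 and 7.60 in KSPAPN, and the groups overlapped (log2 fold change 0.03, SE 0.15, edgeR adjusted p = 0.944). Gstm6 (107938847 to 107943749, minus strand) was near the filter on low counts, at 0.787, 0.377 and 0.915 FPKM in Control and 1.49, 0.908 and 0.873 in KSPAPN. Its groups overlapped too (log2 fold change 0.66, SE 0.40, edgeR adjusted p = 0.403). Gstm3 (107963696 to 107969283, minus strand) had 2 to 5 counts in every library and was not tested.

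Because Gstm5 and Gstm1 moved in opposite directions, the make-up of Mu transcripts changed. The ratio of Gstm5 to Gstm1 FPKM was 0.464, 0.680 and 0.870 in the Control libraries and 2.46, 2.30 and 2.53 in the KSPAPN libraries. Gstm1 was the more abundant of the pair in every Control library and Gstm5 in every KSPAPN library. The mean log2 ratio was −0.62 ± 0.46 (SD, n = 3) in Control and 1.28 ± 0.07 (SD, n = 3) in KSPAPN, a difference of 1.90 (exact permutation test, two-sided, p = 0.1, which 3 against 3 libraries cannot go below). This ratio is taken within a library, so library size does not enter it. The pair was formed from a gene that rose and a gene that fell in these data, each without overlap. The separation of the ratios followed from that choice, so the test adds no support.

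Gstm5 made up 27.8%, 36.2% and 40.9% of the summed FPKM of the 7 Gstm genes in Control and 63.4%, 62.4% and 63.1% in KSPAPN. Gstm1 made up 59.8%, 53.3% and 47.0% and then 25.8%, 27.1% and 25.0%. The sum itself was 466, 485 and 448 FPKM in Control and 625, 631 and 539 in KSPAPN, so the groups did not overlap. Among all 25 transferases measured, Gstm1 ranked first in every Control library and Gstm5 in every KSPAPN library.

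**Figure D1:**
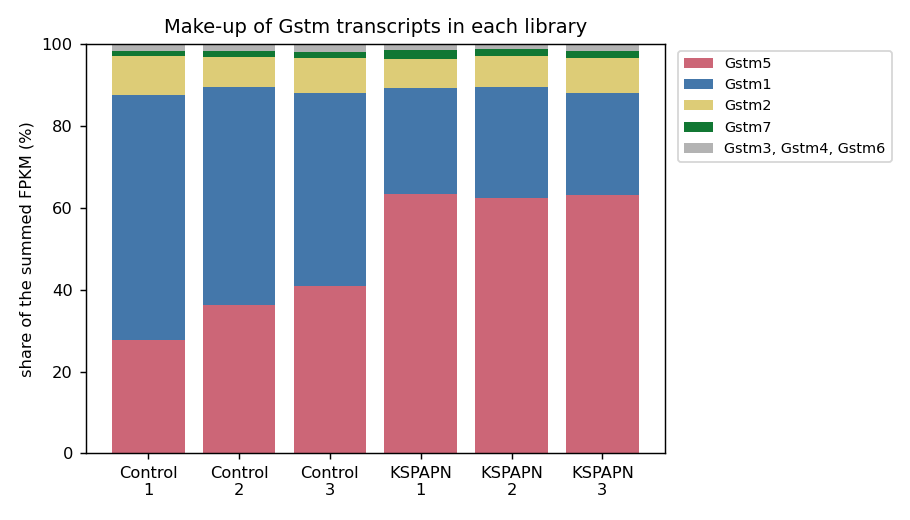
Share of the summed FPKM of the 7 Gstm genes (percent, y axis) in each of the 6 libraries (x axis), stacked by gene. The Gstm5 share was 27.8% to 40.9% in the 3 Control libraries and 62.4% to 63.4% in the 3 KSPAPN libraries, while that of Gstm2 lay between 7.14% and 9.38% throughout.

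How far reads can be told apart bears on these values. Of the 100-base stretches of the longest Gstm5 transcript, 0% occurred in a transcript of any other gene, and the same held for Gstm7 and Gstm4. The share was 7.73% for Gstm1, shared with the pseudogenes Gstm2-ps1 and Gm8834 and with Gstm3, 0.622% for Gstm2, 2.41% for Gstm6 and 13.8% for Gstm3. The Gstm5 coding sequence (675 bases) was also the most distant of the family, with 67.9% to 71.0% identity to the other 6, which had 657 coding bases each and 79.1% to 89.5% identity among themselves.

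An antisense gene, 4933431E20Rik (107888850 to 107896213, minus strand), overlaps the start of Gstm5. It had 410, 414 and 419 counts in Control and 569, 504 and 591 in KSPAPN, with a log2 fold change of 0.21 (SE 0.11, edgeR adjusted p = 0.347). The strandedness of the libraries is not given in the sources used here, so reads in the overlap cannot be assigned to one gene or the other, but these counts are far below the 3064 to 11795 on Gstm5.

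The Gstm cluster spans 149 kb (chromosome 3, 107895821 to 108044894, GRCm38). Of the 16 protein-coding genes within 300 kb on either side, 12 were tested. None passed an adjusted p under 0.05 in edgeR (background 0.393% higher and 2.25% lower). At an unadjusted p under 0.05, 1 was higher and 3 were lower (background 7.52% and 11.2%). DESeq2 called 0 higher and 2 lower (background 1.36% and 5.52%). Their log2 fold changes ran from −0.55 (Atxn7l2) to 0.37 (Sort1) with a median of −0.02, 6 above and 6 below 0. Eps8l3, next to Gstm5 on the other side, had a log2 fold change of −0.50 with a large error (SE 0.81), and Ampd2, next to Gstm4, had 0.01 (SE 0.12).

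**Figure D2:**
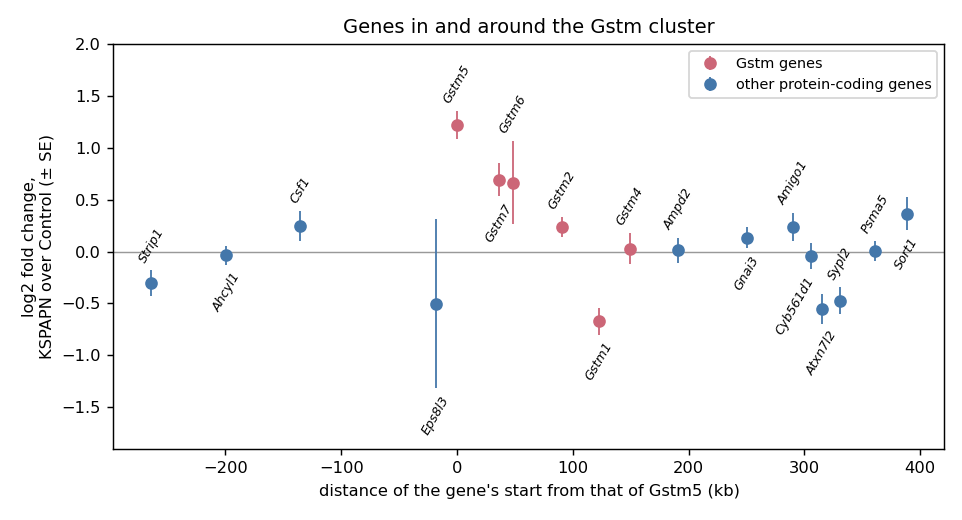
Log2 fold change of KSPAPN over Control (y axis, bars show the standard error) for tested protein-coding genes in and within 300 kb of the Gstm cluster, placed by the distance of each gene's start from that of Gstm5 in kb (x axis). Gstm5 stood at 1.22, Gstm7 at 0.69 and Gstm1 at −0.67, and the 12 genes around the cluster lay between −0.55 and 0.37.

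Seen over all 31 members tested, 2 rose (Gstm5 and Gstm7) and 5 fell (Gsta2, Gsta3, Gstm1, Oplah and Ggt1) at an adjusted p under 0.05. Over all genes tested, 0.393% rose and 2.25% fell by that rule. At an unadjusted p under 0.05, 5 members were higher and 13 were lower, where the background was 7.52% and 11.2%. In 8 members every KSPAPN library lay above every Control library (CPM, counts scaled to library size, background 11.4%), in 12 every KSPAPN library lay below (background 13.1%), and in 11 the groups overlapped. The median log2 fold change was −0.16 for the members, −0.23 for the 25 tested outside the Gstm cluster and 0.45 for the 6 Gstm genes tested. After a correction of each library for GC content and transcript length the median of all members was −0.003, that of all genes 0.04, and 16 rather than 18 members were below 0. With limma on log2(FPKM + 1) the calls of Gstm7, Gstm1, Gsta3 and Ggt1 were lost and those of Gstm5, Gsta2 and Oplah held. One member, Gstp2, passed the filter on low counts through its Control libraries alone.

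**Figure D3:**
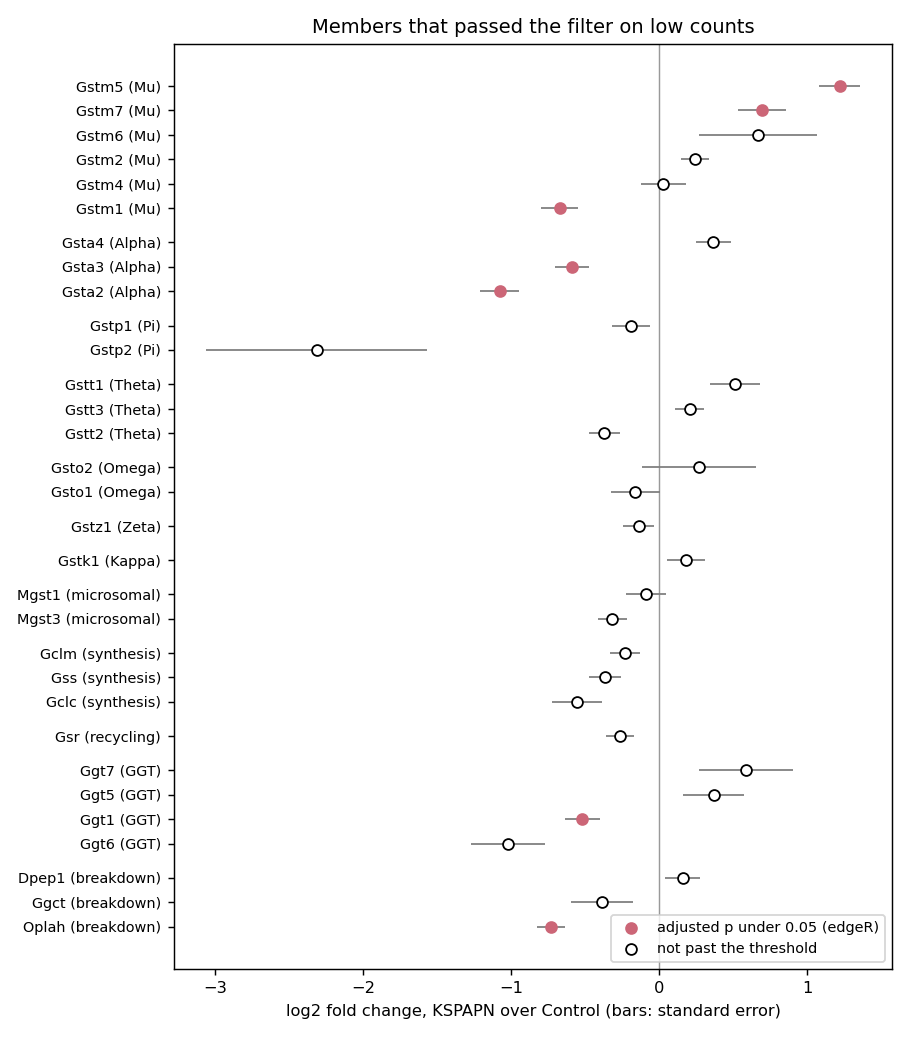
Log2 fold change of KSPAPN over Control (x axis) with its standard error for the 31 members that passed the filter on low counts, grouped by transferase class or role (y axis). Filled points mark the 7 members at an adjusted p under 0.05 (edgeR), of which Gstm5 (1.22) and Gstm7 (0.69) lay above 0 and Gsta2 (−1.08), Oplah (−0.73), Gstm1 (−0.67), Gsta3 (−0.59) and Ggt1 (−0.52) below.

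Alpha class transferases conjugate glutathione and also reduce lipid hydroperoxides, and 2 of their 3 tested members fell. Gsta2 (chromosome 9, 78331018 to 78355788, minus strand) had 73.8, 57.8 and 60.4 FPKM in Control and 28.1, 27.2 and 35.2 in KSPAPN. The highest KSPAPN library was well below the lowest Control library. The level was 2.11-fold lower (log2 fold change −1.08, SE 0.13, edgeR adjusted p = 0.0058), and the call held without any 1 of the 6 libraries.

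Gsta2 shares 35.0% of its 100-base stretches with Gm10639, Gsta1 and Gm3776, so its counts depend on how reads with several matches were handled. Gm10639 had 22 to 74 counts and the other pair 0 to 3, against 586 to 1610 for Gsta2. Gsta1 itself, with 81.8% of its stretches shared, was not tested.

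Gsta3 (chromosome 1, 21240589 to 21265661, plus strand) had 14.8, 17.3 and 13.1 FPKM in Control and 9.02, 10.6 and 10.3 in KSPAPN, with no overlap. It fell by 0.59 on the log2 scale (SE 0.12, edgeR adjusted p = 0.0287), a call lost without Control replicate 1, Control replicate 2, KSPAPN replicate 2 or KSPAPN replicate 3. Gsta4, an enzyme with a preference for the lipid aldehyde 4-hydroxynonenal, went the other way, with 15.5 ± 0.857 FPKM in Control and 19.9 ± 1.48 in KSPAPN (SD, n = 3) and a log2 fold change of 0.37 that did not pass (SE 0.12, edgeR adjusted p = 0.138).

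None of the members in the remaining transferase classes passed in the edgeR test with TMM scaling, and at an unadjusted p under 0.05 these were Gstt1 higher and Gstt2, Gstp2 and Mgst3 lower. DESeq2 called Gstt1 higher and Gstt2 lower, where over all 13621 genes it gave an adjusted p it called 1.36% higher and 5.52% lower. In the Theta class, Gstt1 was the most abundant and had 80.4 to 95.6 FPKM in Control and 98.2 to 165 in KSPAPN, with KSPAPN replicate 1 highest by far (log2 fold change 0.51, SE 0.17, edgeR adjusted p = 0.145). With the correction for GC content and length it was 0.70 and passed. Its neighbour Gstt2 had 44.9 ± 2.11 FPKM in Control and 34.6 ± 4.21 in KSPAPN (log2 fold change −0.37, SE 0.10, edgeR adjusted p = 0.0877). Gstt3 had a log2 fold change of 0.21, and Gstt4 had 0 to 3 counts.

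In the Pi class, Gstp1, ranked 2 or 3 in abundance among the transferases of every library, had 163 to 203 FPKM in Control and 133 to 179.8 in KSPAPN (log2 fold change −0.19, SE 0.13, edgeR adjusted p = 0.454). Its paralog Gstp2 had 40, 31 and 10 counts in Control and 4, 13 and 1 in KSPAPN (log2 fold change −2.31, SE 0.75, edgeR adjusted p = 0.131), and the groups overlapped. Gstp1 and Gstp2 share 52.8% and 63.5% of their 100-base stretches with each other or with the pseudogene Gstp-ps, so the split of reads between them is uncertain. Gstp3 had 64 counts in Control replicate 3 and 2 to 12 in the other 5 libraries.

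Mgst3, the most abundant of the microsomal transferases and a member of the family that also makes leukotriene C4, had 75.7 ± 4.31 FPKM in Control and 60.5 ± 5.18 in KSPAPN (log2 fold change −0.32, SE 0.10, edgeR adjusted p = 0.115). Mgst1 differed by less than its error (log2 fold change −0.09, SE 0.13), and Mgst2 had 0 to 8 counts. Gstk1, the mitochondrial and peroxisomal Kappa enzyme, had a log2 fold change of 0.18 (SE 0.13), Gstz1, which also acts in tyrosine breakdown, −0.14 (SE 0.10), and the more abundant Omega enzyme Gsto1 −0.16 (SE 0.17). The groups of these 3 genes overlapped.

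Glutathione synthesis is carried out by 3 gene products. Each was lower in all KSPAPN libraries than in all Control libraries (background 13.1% of all genes tested). None passed the adjusted threshold in the edgeR test with TMM scaling. All 3 were at an unadjusted p under 0.05 (background 11.2% lower), and DESeq2 called Gclc and Gss (background 5.52% lower). Gclc, the catalytic subunit of glutamate-cysteine ligase and the rate-limiting step, had 73.9, 123 and 94.6 FPKM in Control and 55.2, 73.2 and 69.5 in KSPAPN. The gap between the groups was under 1 FPKM, and the Control libraries were widely spread (log2 fold change −0.56, SE 0.17, edgeR adjusted p = 0.119).

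Gclm, the modifier subunit, had 61.9, 67.9 and 62.5 FPKM in Control and 48.8, 60.8 and 53.8 in KSPAPN (log2 fold change −0.23, SE 0.10, edgeR adjusted p = 0.253). Here too the groups nearly met, and with the correction for GC content and length the log2 fold change was −0.36 and Gclm passed. Gss, glutathione synthetase, had 65.9, 70.4 and 64.0 FPKM in Control and 44.0, 57.4 and 53.3 in KSPAPN (log2 fold change −0.37, SE 0.11, edgeR adjusted p = 0.101). Gss overlaps Acss2 on the opposite strand, which had a log2 fold change of −0.47 (SE 0.11, edgeR adjusted p = 0.0528), so reads in the overlap cannot be assigned.

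Gsr, the reductase that returns oxidized glutathione to its reduced form with NADPH, had 63.2, 69.9 and 59.3 FPKM in Control and 54.0, 54.5 and 50.9 in KSPAPN. The groups did not overlap, but the log2 fold change of −0.27 (SE 0.09) did not pass (edgeR adjusted p = 0.155).

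The enzymes that take glutathione apart held 2 of the 5 members that fell. Ggt1, the gamma-glutamyltransferase of the proximal tubule brush border, was the most abundant member of all in Control kidneys, with 364, 411 and 335 FPKM, and had 229, 290.5 and 252 in KSPAPN. All KSPAPN libraries were below all Control libraries. It fell by 0.52 on the log2 scale (SE 0.12, edgeR adjusted p = 0.0483), just inside the threshold, and the call was lost with total counts alone, with RLE size factors, after the correction for GC content and length, and without any 1 library other than KSPAPN replicate 2.

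Ggt6, a relative of low abundance, had 5.49 ± 0.598 FPKM in Control and 2.72 ± 0.947 in KSPAPN (SD, n = 3; log2 fold change −1.02, SE 0.25, edgeR adjusted p = 0.0604). Ggt5, which cleaves leukotriene C4, and Ggt7 were at or under 1.10 FPKM in every library and had log2 fold changes of 0.37 (SE 0.21) and 0.59 (SE 0.32).

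Oplah, 5-oxoprolinase, which opens the cyclic product of gamma-glutamyl breakdown to return glutamate, had 34.1, 34.0 and 34.3 FPKM in Control and 22.6, 18.9 and 19.9 in KSPAPN. The Control libraries were almost identical and the KSPAPN libraries all far below them. The level was 1.66-fold lower (log2 fold change −0.73, SE 0.10, edgeR adjusted p = 0.0072), and this call held without any 1 library. Exosc4 overlaps Oplah on the opposite strand, with 359 to 535 counts against 2016 to 3694 for Oplah.

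Ggct, which releases 5-oxoproline from gamma-glutamyl amino acids one step earlier, had 6.55 ± 1.25 FPKM in Control and 5.01 ± 1.60 in KSPAPN, with overlapping groups (SD, n = 3; log2 fold change −0.39, SE 0.21, edgeR adjusted p = 0.353). Dpep1, the brush-border dipeptidase that acts after Ggt1, had 56.6 ± 7.26 and 62.9 ± 6.98 FPKM (SD, n = 3). Its log2 fold change of 0.16 (SE 0.12, edgeR adjusted p = 0.512) was opposite in sign to that of Ggt1.

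**Figure D4:**
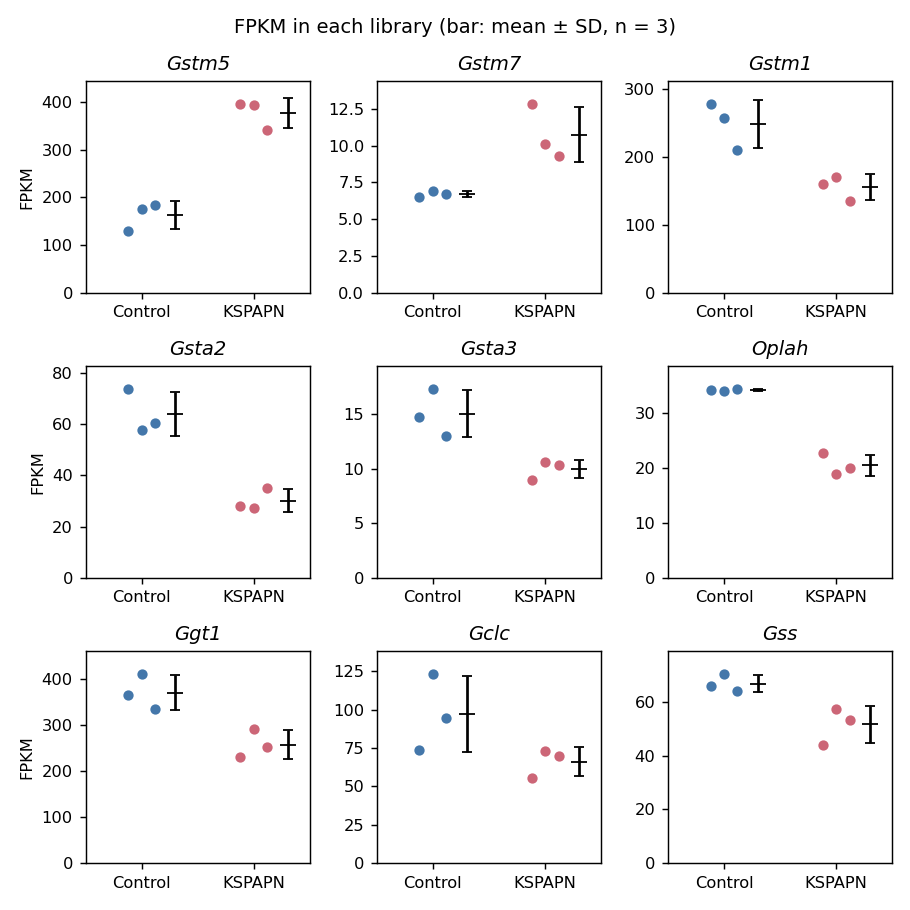
FPKM (y axis, from 0) of 9 members in the 3 Control and 3 KSPAPN libraries (x axis, points), with the mean and SD beside them. Gstm5 and Gstm7 were higher in every KSPAPN library than in every Control library and the other 7 genes lower, with the narrowest gap for Gclc, where 1 Control library had 73.9 FPKM and 1 KSPAPN library 73.2.

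Beside these levels stand those of the cells in the tissue. Of 12 proximal tubule markers, 10 were lower and 2 higher in KSPAPN, with a median log2 fold change of −0.28 (48.1% of all genes tested were lower). At an adjusted p under 0.05 in edgeR, 3 of them were lower (Slc7a13, Miox and Slc22a6, background 2.25%). Their summed level was 28448 to 37669 CPM in Control and 22548 to 29661 in KSPAPN, so the groups overlapped. The calls of these 3 were lost without Control replicate 1, Control replicate 2 or KSPAPN replicate 3 (for Miox and Slc22a6 also KSPAPN replicate 2, for Slc22a6 also Control replicate 3), that of Slc22a6 with total counts alone, and that of Miox with the correction for GC content and length. Slc34a1 and Lrp2, which define the tubule segment, had log2 fold changes of −0.15 and −0.32 and did not pass in edgeR. The part of these markers in the lower levels of Ggt1, Oplah, Gsta2, Gsta3, Gstm1 and the synthesis enzymes was not tested.

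Markers of other segments and cells did not share 1 direction. The median log2 fold change was 0.09 for the thick ascending limb, −0.11 for distal tubule and collecting duct, 0.14 for intercalated cells, 0.05 for endothelium and −0.14 for macrophages. Of 5 intercalated cell markers, 3 were above 0 and 2 below, with Slc4a1 lowest (−0.71, SE 0.20, edgeR adjusted p = 0.0893). Slc4a1 did not overlap between groups, and DESeq2 called it lower. Of 6 distal tubule and collecting duct markers tested, 3 were above 0 and 3 below. Those below (Aqp3, Hsd11b2 and Slc12a3) had an edgeR p under 0.05 before adjustment, and those above did not. None of the 6 passed in edgeR or DESeq2. The thick ascending limb transporter Slc12a1 rose (log2 fold change 0.52, SE 0.11, edgeR adjusted p = 0.0437). Its call was lost with the correction for GC content and length and without any 1 library other than KSPAPN replicate 1. Of the 5 markers of that segment, 3 were higher and 2 lower, the lowest at −0.41. DESeq2 called 1 of the 5 higher and 1 lower (background 1.36% and 5.52%). All 5 fibroblast markers were above 0 without any passing in edgeR or DESeq2, of which Dcn was at an unadjusted p under 0.05. Of the hepatocyte list, Alb had 15 to 213 counts and Tat 0 to 3, while Ttr (−1.17) and Cyp2e1 (−0.82), which the kidney also expresses, fell in log2 fold change at an adjusted p of 0.0388 and 0.0399 (edgeR), calls lost without Control replicate 1, Control replicate 2 or KSPAPN replicate 3 and for Ttr with total counts alone. Of the adipocyte list, Plin1 had 1 to 10 counts and Lep 0 or 1 per library, and the summed level was 39.8 to 41.9 CPM in Control and 42.7 to 59.0 in KSPAPN. Of its 3 genes tested, 1 was higher at an unadjusted p under 0.05 and none passed in edgeR or DESeq2. The part of all these markers in the results on the members was not tested.

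Around the members, 85 other genes of glutathione metabolism were placed in 7 lists. Of the 80 tested, each counted once, 66 were lower and 14 higher, with a median log2 fold change of −0.21 against 0.01 for all genes, of which 48.1% were lower. At an adjusted p under 0.05, 11 fell and 0 rose in edgeR (background 2.25% and 0.393%), the counts at an unadjusted p under 0.05 were 34 and 2 (background 11.2% and 7.52%), and DESeq2 called 20 lower and 0 higher (background 5.52% and 1.36%). With total counts alone or with the correction for GC content and length, 60 of the 80 were lower, with a median of −0.14 either way. Of the 11 genes that fell, only Tst passed without Control replicate 1, without KSPAPN replicate 3 and with limma on log2(FPKM + 1), and the other 10 lost their calls in each of these settings, and 8 of them without further single libraries too. Total counts alone ended the calls of Cbs, Mpst, Ptges2, Slc22a6 and Slc25a10, and the correction for GC content and length those of Acy1, Mpst (log2 fold change −0.37) and Slc25a10 (−0.24).

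In the list of mercapturate formation and peptide breakdown all 11 genes tested were below 0 (10 of 11 with total counts alone), 3 fell at an adjusted p under 0.05, and the median was −0.41. Cndp2, a cytosolic dipeptidase that splits cysteinylglycine, had 549, 738 and 422 FPKM in Control and 164, 252 and 236 in KSPAPN (log2 fold change −1.39, SE 0.21, edgeR adjusted p = 0.0113). Nat8, the cysteine-conjugate N-acetyltransferase that completes mercapturic acids, had 163, 182 and 137 FPKM and then 72.1, 103 and 98.7 (log2 fold change −0.82, SE 0.14, edgeR adjusted p = 0.0197). Acy1, an aminoacylase, fell by 0.64 on the log2 scale (SE 0.12, edgeR adjusted p = 0.0259).

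Of 16 peroxidase, glutaredoxin and thioredoxin genes tested, 12 were lower and 1 passed in edgeR. This was Gpx1, the main cytosolic glutathione peroxidase, with 1179, 1281 and 953 FPKM in Control and 585, 668 and 639 in KSPAPN (log2 fold change −0.85, SE 0.12, edgeR adjusted p = 0.0105). Gpx6 and the mitochondrial reductase Txnrd2 had log2 fold changes of −0.61 and −0.31, and Gpx8 had 0.49, none of which passed in edgeR. DESeq2 called 2 genes of the list lower, Gpx1 and Gpx6 (DESeq2 adjusted p = 0.00615 for Gpx6), and 0 higher. Gpx3 had a mean of 11897 FPKM in Control and 12258 in KSPAPN (log2 fold change 0.05, SE 0.13). Gpx4 had means of 495 and 465 FPKM (log2 fold change −0.08, SE 0.12). The list's median was −0.22, but its summed level overlapped between groups, at 25584.5 to 26616.5 CPM in Control and 24716.1 to 26640.9 in KSPAPN.

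Genes that supply cysteine and methionine were lower in 11 of 13 cases with a median of −0.18, and 2 fell. They were Ahcy, which hydrolyses S-adenosylhomocysteine (log2 fold change −0.49, SE 0.09, edgeR adjusted p = 0.0269), and Cbs, which commits homocysteine to cysteine (log2 fold change −0.50, SE 0.11, edgeR adjusted p = 0.0425). Bhmt had a log2 fold change of −2.01 (SE 0.49) at 1.10 FPKM or less and did not pass in edgeR.

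Glyoxalases and other glutathione or sulfur enzymes were lower in 9 of 11 cases (median −0.17), and 3 fell. Tst and Mpst, sulfurtransferases of cysteine and sulfide metabolism, had log2 fold changes of −0.84 (SE 0.10, edgeR adjusted p = 0.0058) and −0.58 (SE 0.11, edgeR adjusted p = 0.0246), and Ptges2, a prostaglandin E synthase, had −0.51 (SE 0.10, edgeR adjusted p = 0.0303). Hpgds, the Sigma class transferase that makes prostaglandin D2, had 0.127 to 0.365 FPKM and a log2 fold change of 0.94 that did not pass.

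Of 12 transport genes, 9 were lower (median −0.15) and 2 fell. Slc22a6, the basolateral organic anion transporter OAT1, which also stands in the proximal tubule list, had a log2 fold change of −0.46 (SE 0.10, edgeR adjusted p = 0.0388), and the mitochondrial dicarboxylate carrier Slc25a10 −0.46 (SE 0.11, edgeR adjusted p = 0.0498). Slc13a3 was just outside at −0.49 (edgeR adjusted p = 0.0503).

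Enzymes that supply NADPH were lower in 8 of 9 cases (median −0.11), and with total counts alone in 6 of 9. None passed in edgeR or DESeq2, and Idh2 (−0.31) and Idh1 (−0.31) were at an unadjusted p under 0.05. Of 10 genes of the NRF2 pathway, which controls many glutathione genes, 8 were lower with a median of −0.18. None passed in edgeR, 3 were at an unadjusted p under 0.05 (Osgin1 −0.58, Mafg −0.25 and Txnrd1 −0.26), and DESeq2 called 1 lower.

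**Figure D5:**
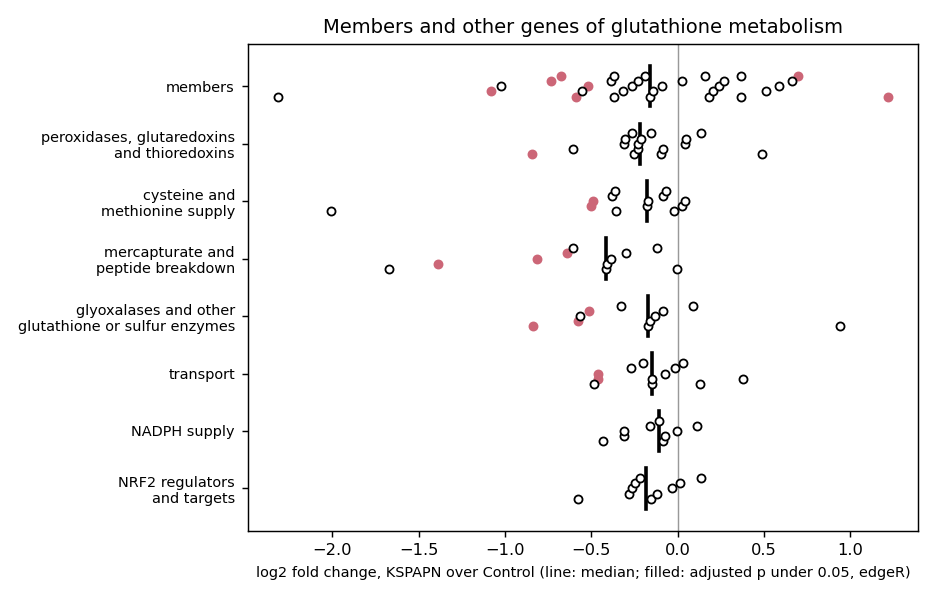
Log2 fold change of KSPAPN over Control (x axis) of each tested gene among the members and in 7 lists of other glutathione genes (y axis), with the median as a line and filled points at an adjusted p under 0.05 (edgeR). The medians ran from −0.11 for NADPH supply to −0.41 for mercapturate and peptide breakdown, and the only filled points above 0 were the members Gstm5 and Gstm7.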

How the data were processed

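The authors enriched mRNA from pooled whole-kidney RNA with oligo(dT) beads and deposited 1 table with raw counts per gene and FPKM for each of 6 libraries. The deposited counts are whole numbers without normalization, and the deposited FPKM are scaled by the authors for gene length and library size. The submitters' processing notes name STAR 2.5, TopHat, HTSeq 0.6.1, DESeq2 and edgeR without their roles. Build, annotation and library strandedness were not given in the sources used here.

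Groups came from the sample titles. Ensembl identifiers were looked up in GENCODE M21 (GRCm38) for symbols and coordinates, and 54495 of 54532 matched. Counts were tested with edgeR 4.0.16 (R 4.3.3), with TMM factors, filterByExpr at a minimum count of 10 and a total of 15, the two-sided quasi-likelihood test and Benjamini-Hochberg adjustment over 16017 genes. Totals were 17183358 to 20871173 counts. On simulated counts for these libraries, 92% of 200 changed genes were recovered and 4.66% of calls were false. Every simulated gene had the same dispersion, and the simulated fold changes were larger than those of most members called. Whether these shares hold for the real libraries, or for fold changes of the size seen in the members, was not tested. The ratio of Gstm5 to Gstm1 was compared with an exact permutation test over 20 arrangements.

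Named with values were members at an unadjusted p under 0.05, the Gstm genes, Gclc, Gclm, Gss, Gsr, Ggct, Oplah, Ggt1, Dpep1 and the most abundant member of each transferase class. In other lists they were the 3 smallest unadjusted p under 0.05 per direction. Other genes named were chosen after their values were seen. The members and lists were chosen with earlier results of these data known. One marker list is not reported here. Alternatives were RLE or total-count scaling, TMM without mitochondrially encoded genes and Adipoq, no filter, DESeq2 1.42.0, limma 3.58.1 on log2(FPKM + 1) or log2(FPKM + 0.1), replicate number as a block, offsets for GC content and transcript length, and each library left out. Tables and plots used Python 3.11.15, pandas 2.3.3, Biopython 1.88 and matplotlib 3.10.9.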

Additional observations from a re-analysis of the deposited data

How the results depend on the processing

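Against 2 members higher and 5 lower at an adjusted p under 0.05, the counts were 2 and 4 with RLE factors, 1 and 4 with total counts alone, 3 and 12 without the filter on low counts, 3 and 9 with DESeq2, 4 and 5 with offsets for GC content and length (Gstm2, Gstt1 and Gclm added, Ggt1 lost), and 1 and 2 with limma on log2(FPKM + 1) or log2(FPKM + 0.1). Limma on all 29418 genes with a count called 0 and 0 members and 1 gene in all (1182 higher and 2064 lower at an unadjusted p under 0.05). Leaving out 1 library at a time gave 1 higher each time and 2 to 5 lower. Over all genes the counts were 63 higher and 361 lower in the main fit, 64 and 348 with RLE factors, and 71 and 195 with total counts alone. They were 301 and 1038 of 29418 genes without the filter, 185 and 752 with DESeq2, and 97 and 300 with the offsets. With limma they were 10 and 118 on log2(FPKM + 1) and 10 and 109 on log2(FPKM + 0.1). With 1 library left out they ran from 5 to 162 higher and from 34 to 571 lower. Gstm5, Gsta2 and Oplah were called in all these settings except limma on all genes with a count, and the cause of the lost calls of the other members was not tested.

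The tests reported have no replicate block, since neither the labels nor the study say what a replicate number shares. Deviations of same-numbered libraries from their group means correlated weakly, at 0.0537, 0.154 and 0.173, though every library correlated best with its own number. Whether libraries of the same number share a source was not tested. With the replicate block 2 members were higher and 9 lower, with Gclc, Gss, Gstt2 and Ggt6 added, and with the block and the offsets 6 and 7. Over all genes the counts rose as well, from 63 higher and 361 lower to 224 and 705 with the block. They were 187 and 491 with the block and the offsets.

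Signs changed for members near 0. Leaving out 1 library at a time, the log2 fold change ran from −0.0387 to 0.115 for Gstm4, from −0.0212 to 0.49 for Gsto2 and from −0.205 to 0.0259 for Mgst1. With the offsets, Gsto1 was at 0.0186 and Gstp1 at 0.0298, and at 0.0296 and 0.0306 with the block as well. The difference in the log2 ratio of Gstm5 to Gstm1 kept its sign in every setting run (1.66 to 2.11 with 1 library left out).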
